A study of Homo sapiens with 6 samples.

Results

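The expression of 8 genes of the PI3K-AKT pathway was compared between Caki2 cells that re-expressed PBRM1 and cells that carried an empty vector. Caki2 is a human clear cell renal cell carcinoma (ccRCC) line that lacks the PBRM1 protein, a subunit of the PBAF chromatin remodeling complex. The genes were taken by symbol and by their place in the pathway, and the rule used no measured value: the catalytic subunits PIK3CA and PIK3CB, the regulatory subunits PIK3R1, PIK3R2 and PIK3R3, the kinases AKT1 and AKT2, and the phosphatase PHLPP1. All 8 were found among the 25369 genes of the deposited files. Caki2+Vector cells carried an empty doxycycline-inducible lentiviral vector and Caki2+PBRM1 cells carried the same type of vector with PBRM1. Both lines had been selected for stable integration and both were grown with 2 µg/ml doxycycline, so the antibiotic itself was common to the groups. Each group had 3 replicates, lettered A to C, with 7312955 to 10835355 reads on genes per sample. The sources call them biological replicates without saying whether they came from separate infections, and p-values measure only the spread between these samples.

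Class I PI3-kinases are heterodimers of a catalytic and a regulatory subunit. After growth factor receptors are activated, the regulatory subunit brings the enzyme to the membrane, where the catalytic subunit makes the lipid PIP3. AKT kinases bind PIP3, are phosphorylated there, and in turn phosphorylate factors of growth, survival and glucose uptake, while PHLPP phosphatases remove a phosphate from AKT. The pathway is frequently active in ccRCC. RNA-Seq reads transcript amounts only, and neither AKT phosphorylation nor protein was analysed here.

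PIK3R2 was upregulated with PBRM1 re-expression, and AKT1 by a smaller amount, while both catalytic subunits, PIK3CA and PIK3CB, were downregulated. PIK3R1, PIK3R3, AKT2 and PHLPP1 did not pass the test. The change in PIK3R2 was a fold of 1.31 and the other 3 were smaller, with the mean of PIK3CA in Caki2+PBRM1 at 0.882 of that in Caki2+Vector. Thus 4 of the 8 genes passed an adjusted p of 0.05 in limma, where 29.2% of the 13303 genes tested did so (16.2% upregulated and 13.0% downregulated). In edgeR 4 of the 8 passed (30.1% of all genes tested) and in DESeq2 3 of the 8 passed, PIK3R2, PIK3CA and PIK3CB (19.2%). In DESeq2 PIK3CA (adjusted p = 0.0436) and PIK3CB (adjusted p = 0.0495) were close to the threshold. Without Caki2+PBRM1 B, only PIK3R2 passed in limma (22.1% of all genes). The 4 were 2 upregulated and 2 downregulated genes, and the median log2 fold change of the 8 was 0.08, beside -0.0036 over all genes tested. Over the whole data set, the genes that passed had a median change of 0.31 in size on the log2 scale, and 36.1% of them changed by more than PIK3R2.

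The labelled groups were checked by PBRM1 itself, whose normalized counts were 182.2 to 195.0 without and 2431.7 to 2682.4 with the PBRM1 vector. The labels give Caki2+Vector as without PBRM1 expression, and the transcript was present there at this lower level. A normalized count is the number of reads on a gene divided by a size factor of the sample. Of 8 renal epithelial and renal carcinoma markers, 7 passed the filter on low values, among them PAX8 at 1887.7 to 2190.0, while CA9 was at 0 to 15.2. Their sum was 15070.3 to 16032.7 in the Caki2+Vector samples and 13657.0 to 14278.2 with PBRM1, and the part of this lower sum in the results was not tested. Of the leukocyte markers CD3E was at 0 in every sample and PTPRC at 5.7 or less, and CD68, at 1897.6 to 2139.9, made up nearly all of the list's sum, which was 2002.2 to 2145.6 in Caki2+Vector and 1901.8 to 1939.4 with PBRM1. The part of this difference in the results was not tested either. The endothelial markers summed to 0.9 to 6.2, with CDH5 at 0, and the fibroblast markers to 78.1 to 104.0, ranges that overlapped between the groups. In RNA of whole cultures, fewer cells that express a gene and less RNA per cell cannot be told apart. The library Caki2+Vector A stood apart from the other 2 of its group, with a chi-square per degree of freedom of 3.091 and 2.839 against them, where replicate pairs elsewhere gave 1.188 to 1.339. Values without it are therefore given beside the results that it touches.

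PIK3R2 encodes the beta regulatory subunit of class I PI3K (GRCh37 chromosome 19, 18263973 to 18281342, plus strand). Its normalized counts were 443.0, 557.4 and 537.0 in Caki2+Vector A, B and C and 680.2, 672.0 and 664.7 in Caki2+PBRM1 A, B and C. All 3 Caki2+PBRM1 samples were above all 3 Caki2+Vector samples, and Caki2+Vector A was the lowest of the 6. The mean rose from 512.5 ± 61.0 to 672.3 ± 7.8 (SD, n = 3 per group), a log2 fold change of 0.40 with an SE of 0.069, a 95% interval of 0.26 to 0.54 and an adjusted p of 5.96e-05. Without Caki2+Vector A the log2 fold change was 0.30 (adjusted p = 1.50e-05), and the gene passed in all 6 fits that left out a sample. In the annotation, 76.35% of its exon length is shared with a read-through gene of the same locus that has no row under its name in the files, so reads from such transcripts could be counted here.

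PIK3CA, which encodes the alpha catalytic subunit and is a recurrent oncogene of carcinomas, lies on chromosome 3 (178865902 to 178957881, plus strand). Caki2+Vector A, B and C had 821.7, 798.3 and 779.1 normalized counts, and Caki2+PBRM1 A, B and C had 746.3, 683.5 and 686.5. The groups did not overlap, with the lower values in Caki2+PBRM1. The means were 799.7 ± 21.4 and 705.5 ± 35.4 (SD, n = 3 per group), a log2 fold change of -0.18 (SE 0.054, 95% interval -0.29 to -0.07, adjusted p = 0.0118). The value was -0.16 without Caki2+Vector A, and the gene no longer passed without Caki2+PBRM1 B (adjusted p = 0.0781) or without Caki2+PBRM1 C (adjusted p = 0.0724). Of its exon length, 19.8% is shared with the antisense gene KCNMB3, which was at 95.7 to 121.1 normalized counts, and the sources do not state a strand-specific count.

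PIK3CB encodes the beta catalytic subunit and lies on the same chromosome (138371540 to 138553770, minus strand). It was at 734.6, 736.0 and 762.3 normalized counts in Caki2+Vector and at 666.2, 648.8 and 655.5 in Caki2+PBRM1. Here too every Caki2+PBRM1 sample was below every Caki2+Vector sample, and the spread within groups was small. The means of 744.3 ± 15.6 and 656.8 ± 8.7 (SD, n = 3 per group) gave a log2 fold change of -0.18 (SE 0.053, 95% interval -0.29 to -0.07, adjusted p = 0.0109). It was -0.19 without Caki2+Vector A and did not pass without Caki2+PBRM1 B (adjusted p = 0.0546).

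The sequences upstream of the transcription start are shown for PIK3R2, the gene that rose most, and for PIK3CA, as 1 of the genes that fell, since RefSeq lists a single start for each. They are the 250 bases before the start on GRCh38.p14, at chr19:18152913-18153162 (plus strand) and chr3:179148107-179148356 (plus strand), written 5′ to 3′, with matches in capitals to the forkhead motif GTAAACA, the HIF core ACGTG or GCGTG, and the E-box CACGTG, which contains ACGTG, searched on both strands.
PIK3R2: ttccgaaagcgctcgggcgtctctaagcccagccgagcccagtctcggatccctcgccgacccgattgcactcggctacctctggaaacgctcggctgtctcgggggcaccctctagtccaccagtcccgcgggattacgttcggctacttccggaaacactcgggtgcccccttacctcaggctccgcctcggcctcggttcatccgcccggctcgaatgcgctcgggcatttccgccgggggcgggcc
PIK3CA: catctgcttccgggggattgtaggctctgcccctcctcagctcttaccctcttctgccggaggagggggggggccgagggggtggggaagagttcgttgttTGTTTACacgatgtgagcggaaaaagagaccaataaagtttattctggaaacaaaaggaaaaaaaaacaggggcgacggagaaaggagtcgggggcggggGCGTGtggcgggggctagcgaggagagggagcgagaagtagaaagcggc
The PIK3R2 sequence has 67.6% GC and no match to these letters. The PIK3CA sequence has 57.6% GC, close to the median of 58.0% over all windows, with 1 forkhead match on the reverse strand and 1 HIF core match. Of 35116 such windows, 2.98% hold the forkhead motif, 43.2% the HIF core and 6.34% the E-box, so the HIF core match in particular is a common one.

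PIK3R1 encodes the alpha regulatory subunit (chromosome 5, 67511568 to 67597649, plus strand) and also gives rise to shorter isoforms, which gene-level counts do not separate. It was at 521.6, 514.0 and 486.6 normalized counts in Caki2+Vector and at 496.1, 492.4 and 503.6 in Caki2+PBRM1. The groups overlapped, and the log2 fold change of -0.03 had a 95% interval of -0.15 to 0.10 (adjusted p = 0.771). PIK3R3, the gamma regulatory subunit (chromosome 1, 46505812 to 46598708, minus strand), was at 38.8, 41.6 and 43.1 in Caki2+Vector and at 35.7, 50.7 and 42.0 in Caki2+PBRM1. With 33 to 57 reads per sample it was the least covered of the 8 genes, and both the lowest and the highest value came from Caki2+PBRM1. Its log2 fold change of 0.04 had an interval of -0.33 to 0.41, so that a change of the size seen for PIK3R2 lay within it, and its sign turned without Caki2+PBRM1 B (-0.08).

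AKT1, the most widely expressed of the AKT kinases (chromosome 14, 105235686 to 105262088, minus strand), was at 976.0, 987.3 and 949.3 normalized counts in Caki2+Vector and at 1096.2, 1071.9 and 1022.3 in Caki2+PBRM1. The groups did not overlap. The mean rose from 970.9 ± 19.5 to 1063.5 ± 37.7 (SD, n = 3 per group), a log2 fold change of 0.13 (SE 0.049, 95% interval 0.03 to 0.23, adjusted p = 0.0425), and the same size was found without Caki2+Vector A (0.13, adjusted p = 0.0203). The gene was close to the threshold: it passed in 3 of the 6 fits that left out a sample, failing without Caki2+PBRM1 A (adjusted p = 0.182), Caki2+PBRM1 B (0.136) or Caki2+Vector C (0.124), and it did not pass in DESeq2 (0.142).

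AKT2, a kinase with a known part in insulin-stimulated glucose uptake (chromosome 19, 40736224 to 40791443, minus strand), was at 961.8, 1150.7 and 1119.5 normalized counts in Caki2+Vector and at 1153.6, 1155.5 and 1175.9 in Caki2+PBRM1. The groups were separated only by the gap between 1150.7 and 1153.6, and most of the difference in means came from Caki2+Vector A. The log2 fold change was 0.11 (SE 0.055, 95% interval 0.00 to 0.23, adjusted p = 0.13), and 0.03 without Caki2+Vector A (adjusted p = 0.61). Without Caki2+Vector B it was 0.16 and passed (adjusted p = 0.0428). PHLPP1, the phosphatase of AKT (chromosome 18, 60382774 to 60647666, plus strand), was at 109.8, 107.7 and 85.1 in Caki2+Vector and at 123.5, 97.8 and 109.9 in Caki2+PBRM1. Its groups overlapped, and the log2 fold change of 0.13 equaled that of AKT1 in size but had a wider interval of -0.13 to 0.39 (adjusted p = 0.474), and it ranged from 0.02, without Caki2+Vector C, to 0.22, without Caki2+PBRM1 B. Counted without any model, 5 of the 8 genes had groups that did not overlap (3 higher and 2 lower in Caki2+PBRM1), beside 41.7% of all genes tested (22.1% higher and 19.6% lower). An exact permutation test of a single gene cannot go below p = 0.1 with 3 against 3 samples, and each of these 5 was at that value.

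**Figure D1:**
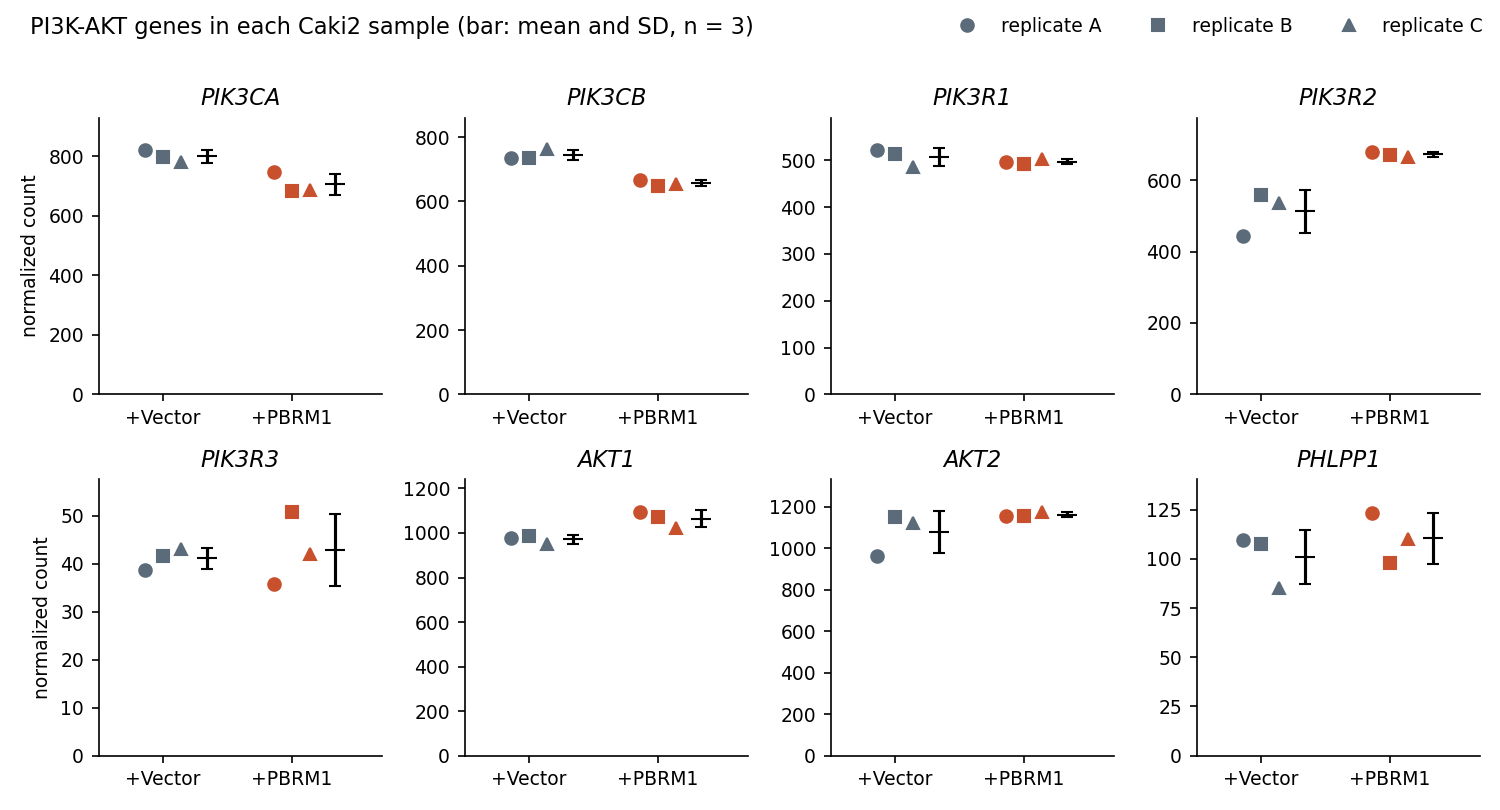
Normalized count of each of the 8 genes in every sample, with a marker shape for each replicate letter and a bar for the group mean and SD. The PIK3R2 points of Caki2+PBRM1 sit between 664.7 and 680.2, above those of Caki2+Vector at 443.0 to 557.4, while PIK3CA and PIK3CB are lower in all 3 Caki2+PBRM1 samples.

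**Figure D2:**
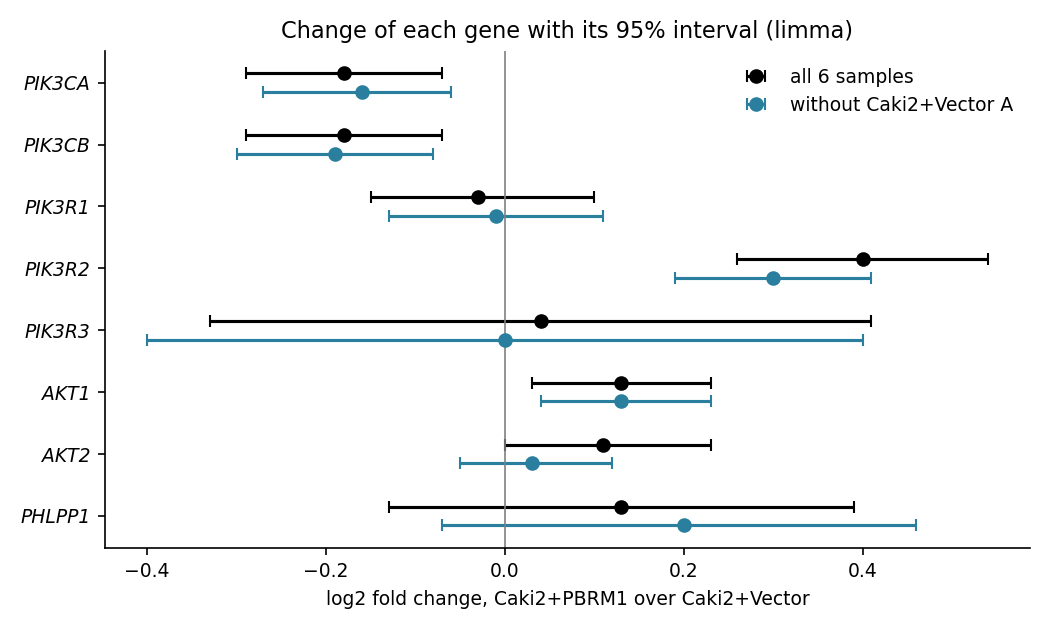
The log2 fold change of each gene (Caki2+PBRM1 over Caki2+Vector) with its 95% interval from limma, with all 6 samples and without Caki2+Vector A. The interval of PIK3R2 starts at 0.26 with all samples and at 0.19 without that library, and AKT2 moves from 0.11 to 0.03.

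PIK3R2 and AKT2 were low in Caki2+Vector A, and the difference of this library from Caki2+Vector B and C varied with GC content. Whether that trend accounts for the low values of these genes was not tested. Genes were placed in 6 classes by the GC content of their exons, and the log2 difference of Caki2+Vector A from the mean of Caki2+Vector B and C was taken for each gene. The median difference fell from 0.09 for genes under 40% GC to -0.20 for genes at 60% GC or more. PIK3R2, with 63.08% GC, differed by -0.30 and AKT2, with 56.85%, by -0.24, whereas AKT1, with 62.38%, differed by only 0.01. At the other end of the range, PIK3CA (34.92%) differed by 0.06 and PIK3CB (39.7%) by -0.03. With a correction for GC content and length, the log2 fold change of PIK3R2 was 0.36 (adjusted p = 3.56e-08), that of PIK3CA -0.24 and that of PIK3CB -0.22, and these genes passed, as did 38.0% of the genes with a value. AKT1 was then at 0.05 and did not pass (adjusted p = 0.491), AKT2 was at 0.04, and PIK3R1 went from -0.03 to -0.12 and did not pass (adjusted p = 0.0988). The median log2 fold change over the 12160 genes with a value was -0.0365 with this correction. Over all 13303 genes tested it was -0.0036 without it.

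**Figure D3:**
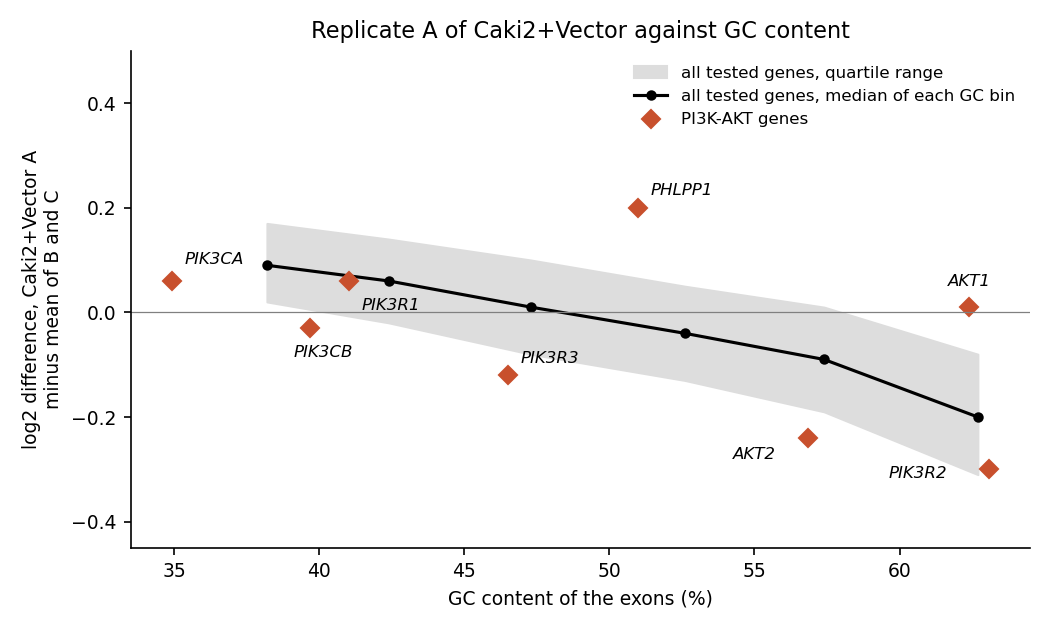
Median log2 difference between Caki2+Vector A and the mean of Caki2+Vector B and C in 6 classes of exon GC content, with the 8 genes as points at their own GC content. The class medians fall from 0.09 to -0.20, and PIK3R2 and AKT2 are the lowest points at -0.30 and -0.24.

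To compare the genes with each other, normalized counts were divided by the length of the canonical transcript in kb. AKT1 was the highest of the 8, with 328 ± 6.61 per kb in the vector line and 360 ± 12.7 with PBRM1 (SD, n = 3 per group), followed by AKT2 at 205 and 221. PIK3R2 came next at 129 ± 15.3 and 169 ± 1.95, and its Caki2+Vector values of 111 and more per kb overlapped those of PIK3CB, which was at 119 ± 2.49 and fell to 105 ± 1.39. PIK3CA was at 86.4 and 76.2 and PIK3R1 at 72.7 and 71.3, while PHLPP1, at 16.0 and 17.5, and PIK3R3, at 7.36 and 7.65, were far below. PIK3CB was the more abundant catalytic transcript and PIK3R2 the most abundant regulatory one in both groups. These orders rest on 1 transcript length per gene, and isoform use was not analysed here.

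Within the regulatory family, PIK3R2 made up 57.7%, 63.3% and 63.5% of the per-kb sum of PIK3R1, PIK3R2 and PIK3R3 in Caki2+Vector and 68.8%, 67.9% and 67.7% in Caki2+PBRM1. The share of PIK3R1 went from 35.0% ± 3.28 to 28.8% ± 0.443 (SD, n = 3 per group) and that of PIK3R3 from 3.53% to 3.08%. The log2 ratio of PIK3R2 to PIK3R1 counts was -0.24, 0.12 and 0.14 in Caki2+Vector and 0.45, 0.45 and 0.40 in Caki2+PBRM1, with no overlap. The difference was 0.43, or 0.30 without Caki2+Vector A, and its exact permutation p was 0.1, the lowest that the design allows, or 0.5 after adjustment over the 5 ratios compared. The other ratios moved less: PIK3CB to PIK3CA, which had fallen by similar amounts, was at -0.10 in both groups, and AKT2 to AKT1 was at 0.15 ± 0.145 and 0.13 ± 0.066, a difference of -0.02, or -0.10 without Caki2+Vector A. The ratio of PHLPP1 to AKT1 was -3.26 in both groups, with an SD of 0.176 and 0.159.

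**Figure D4:**
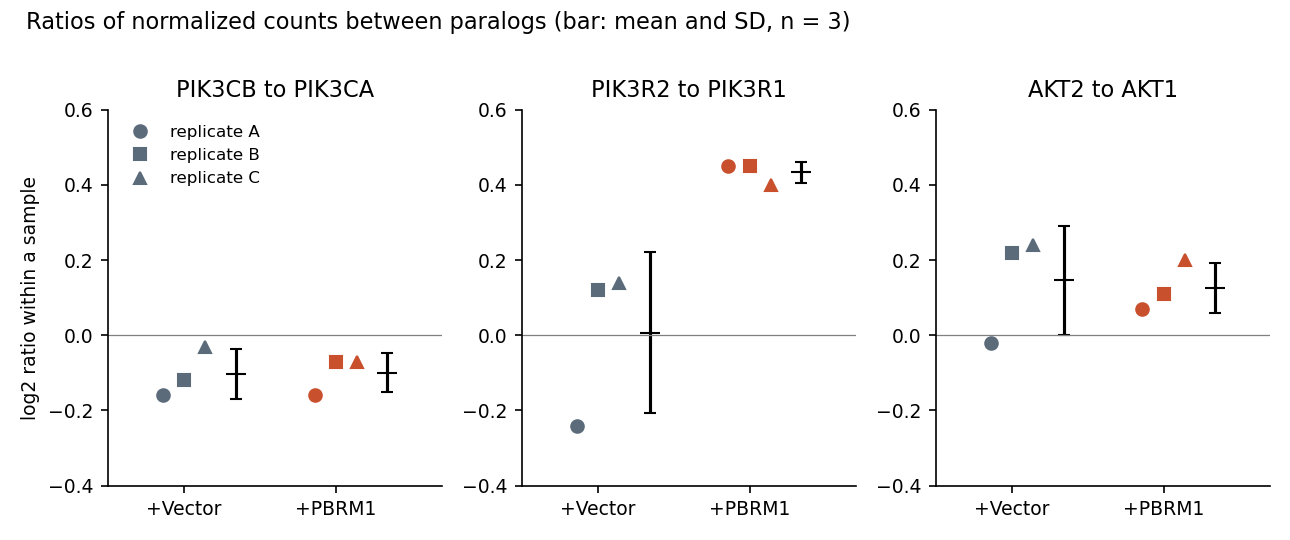
The log2 ratio of normalized counts in each sample for PIK3CB to PIK3CA, PIK3R2 to PIK3R1 and AKT2 to AKT1, with a bar for the group mean and SD. Only the ratio of PIK3R2 to PIK3R1 has groups that do not overlap, with 0.40 to 0.45 in Caki2+PBRM1 and -0.24 to 0.14 in Caki2+Vector.

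By the root mean square difference of their log2 profiles over the 6 samples, each profile taken relative to its Caki2+Vector mean, the genes nearest to PIK3R2 among 11171 candidates with a mean of 50 or more in the higher group were RAPGEF3 (0.024), COL6A1 (0.039) and MED27 (0.039), where the median gene was at 0.32. RAPGEF3, a cAMP-activated exchange factor for RAP proteins, went from 587.9 to 774.5 normalized counts. COL6A1, a chain of type VI collagen, went from 1258.6 to 1617.8, and MED27, a subunit of the Mediator complex, from 129.0 to 165.1.

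The rest of the pathway was described with 89 genes in lists by role, of which 80 were tested. In all, 21 of the 80 (26.2%) were upregulated and 9 (11.2%) downregulated, beside 16.2% and 13.0% of all genes tested, with a median log2 fold change of 0.07. In DESeq2, which called 19.2% of all genes, the numbers were 14 and 7. Among the other PI3-kinases, PIK3C3, the class III enzyme of autophagy and endosomal sorting, went up from 101.3 to 157.6 normalized counts, by 0.64 ± 0.109 (SE) on the log2 scale (adjusted p = 4.03e-05), and was the only 1 of the 4 class II and III genes tested to pass in limma. None of the 6 tested genes of PDK1 and the mTORC2 complex, which phosphorylate AKT, passed in limma, edgeR or DESeq2, and 0 of them had an unadjusted limma p under 0.05. Without Caki2+Vector A, 2 of them passed in limma, RICTOR upward (0.16, adjusted p = 0.0353) and PRR5 downward (-0.25, adjusted p = 0.019), both named after their values were seen.

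Upstream of PI3K, 2 of the 8 tested receptor adaptors were upregulated and the others did not pass (beside 29.2% of all genes tested that did). GAB1, a docking protein that recruits PI3K to receptors, rose from 73.4 to 153.7 (1.06 ± 0.121 SE, adjusted p = 5.25e-08). GRB10, an adaptor that inhibits insulin and IGF1 receptor signaling, rose from 709.0 to 1286.5 (0.86 ± 0.050 SE, adjusted p = 4.51e-14).

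Among the opposing enzymes, 3 of 7 tested phosphoinositide phosphatases were upregulated and none was downregulated (beside 16.2% and 13.0% of all genes tested). INPP4A, which acts on the PI3K product PI(3,4)P2, rose from 259.0 to 364.7 (0.50, adjusted p = 1.28e-05), and INPPL1 (SHIP2), which removes a phosphate from PIP3, from 692.8 to 823.7 (0.25, adjusted p = 4.41e-04). Of the 10 genes of AKT phosphatases, which include PHLPP1 and the subunits of PP2A, 2 were upregulated and 1 downregulated (beside 16.2% and 13.0%). These were the PP2A regulatory subunits PPP2R5B (44.0 to 70.4, 0.66) and PPP2R5A (1113.4 to 909.5, -0.29) and the scaffold subunit PPP2R1A (0.15). Of 6 tested proteins that bind and inhibit PI3K, AKT or, in the case of DEPTOR, mTOR, 3 were downregulated (beside 13.0% of all genes tested). They were the pseudokinases TRIB3 (1136.8 to 933.4, -0.28, adjusted p = 8.25e-05) and TRIB1 (475.5 to 390.7, -0.28) and the AKT-binding thioesterase THEM4 (207.3 to 169.3, -0.29, adjusted p = 0.0214, or 0.11 in DESeq2). The 1 upregulated gene, PIK3IP1, was low, at 20.2 and 33.5, and no longer passed without Caki2+Vector A (adjusted p = 0.0738), without Caki2+PBRM1 A or C, or in DESeq2 (0.127). The inhibitors of the pathway therefore included genes of both directions.

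Downstream of AKT, 3 of 9 substrates were upregulated in limma, GSK3B (0.15), FOXO3 (0.17) and TBC1D4 (0.21). TBC1D4 is a RAB GTPase-activating protein of glucose transporter traffic. Of all genes tested, 16.2% were upregulated and 13.0% downregulated, the shares to set beside each count of this paragraph. None of the 9 substrates passed in DESeq2, which called 19.2% of all genes. In limma the number of upregulated substrates was 0 without Caki2+PBRM1 A and 1 without Caki2+PBRM1 B or C. RPTOR, the scaffold of mTORC1, was the 1 of 6 TSC and mTORC1 genes to pass (0.22, adjusted p = 0.0365), with overlapping groups and an adjusted p of 0.102 without Caki2+Vector A, and no gene of this list passed without Caki2+PBRM1 C. Of 6 tested genes of S6 kinases, 4E-BP and SGK kinases, SGK2 fell from 355.8 to 255.6 (-0.48, adjusted p = 1.09e-05) and RPS6KB1 by less (-0.17, adjusted p = 0.0294, or 0.0826 without Caki2+Vector A). The number that passed was also 1 when any of the Caki2+PBRM1 samples was left out.

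Genes known to be induced by FOXO factors, which AKT phosphorylates and keeps out of the nucleus, formed the longest list, in which 8 of 17 were upregulated and 3 downregulated (47.1% and 17.6%, beside 16.2% and 13.0% of all genes tested). TXNIP, an inhibitor of thioredoxin and of glucose uptake, doubled from 880.0 to 1759.3 normalized counts (1.00 ± 0.046 SE, adjusted p = 9.59e-17). CITED2 (0.69), FBXO32 (0.72), SESN3 (0.65), BCL6 (0.35), CCNG2 (0.33), BCL2L11 (0.28) and CAT (0.18) also rose. CAT did not pass in DESeq2 (adjusted p = 0.126), where 7 genes of the list were upregulated and 3 downregulated (19.2% of all genes were called). In limma with a sample left out, 7 to 9 were upregulated and 3 to 4 downregulated. INSR, the insulin receptor, fell from 187.0 to 90.8 (-1.04 ± 0.116 SE, adjusted p = 3.69e-08), as did SOD2 (-0.25) and the low ERBB3 (47.1 to 23.0). These genes have many other regulators, and the median log2 fold change of the 17 was 0.20.

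**Figure D5:**
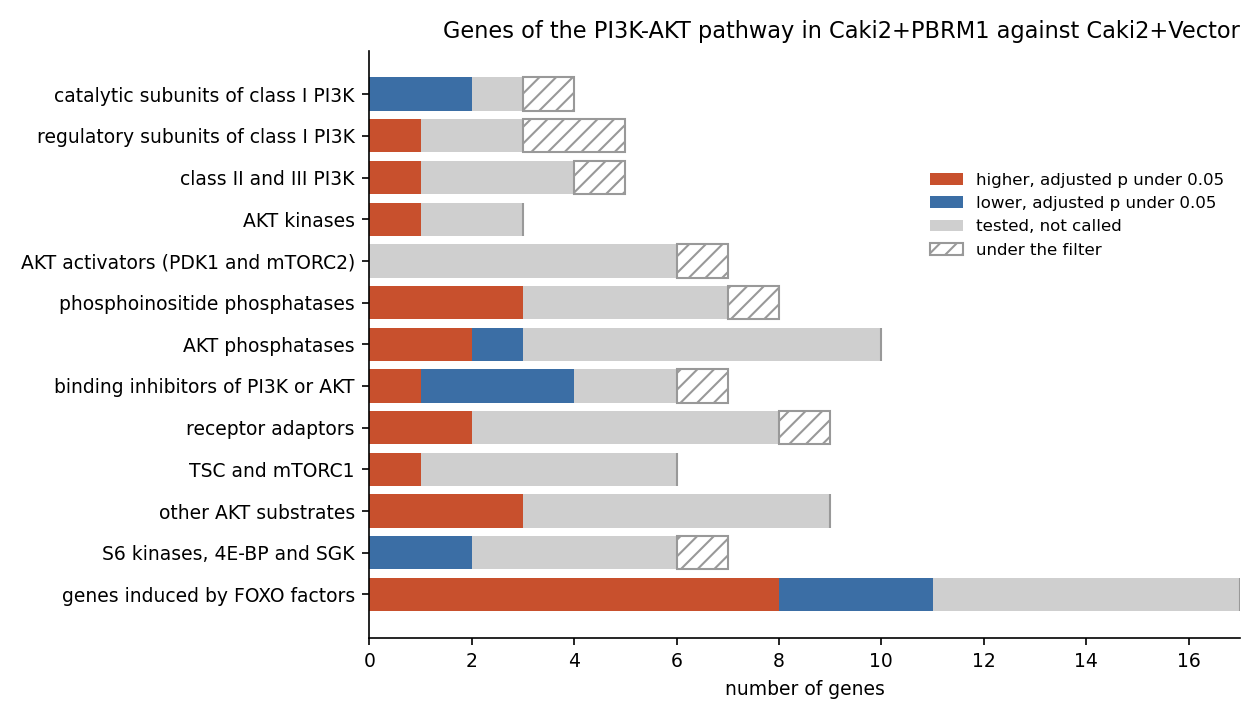
Number of genes in each list of the pathway that were upregulated, did not pass or were downregulated in Caki2+PBRM1 (limma, adjusted p under 0.05). The hatched parts are genes under the filter on low values, which were not tested. The list of genes induced by FOXO factors has 8 upregulated and 3 downregulated genes of 17 (all genes tested: 16.2% and 13.0%), and PDK1 with mTORC2 has no gene that passed.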

How the data were processed

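RNA-Seq of 6 Caki2 samples, 3 with an empty vector and 3 with PBRM1, was analysed, and groups and replicate letters were taken from the labels. The authors aligned 100 bp paired-end reads to hg19 with STAR, counted them on genes with htseq-count and normalized them with DESeq2. The signal they deposited is a normalized count, without division by gene length. Every file holds whole multiples of a single step, and 100% of values were whole reads within 0.01 reads, with size factors of 0.834 to 1.191.

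A gene was tested when 3 or more samples reached a normalized count of 10, which 13303 of 25369 genes did. In R 4.3.3, log2(normalized count + 1) was compared using limma 3.58.1 with its trend and robust options, with a Benjamini-Hochberg adjusted p under 0.05. Log2 fold changes are on that scale, and they understate the change of low genes. Log2 fold changes had an SE of 0.0829 (median over genes), which limma takes from the spread between samples within groups. SDs are between samples.

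All 8 genes are named with every value. Of the pathway lists, genes that passed and whose higher group had a mean of 50 or more are named, and the others named were chosen after their values were seen. The rule for the 8 genes used no measured value, but the genes and the lists were chosen with earlier results of these data known. Some genes of the lists are counted but not named.

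Positions, lengths and GC content are from GENCODE on GRCh37, found for 91.4% of tested genes, and promoter sequences from RefSeq on GRCh38.p14. The alternatives were edgeR 4.0.16 (quasi-likelihood) and DESeq2 1.42.0 on the recovered reads, voom, TMM, quantile normalization, pseudocounts of 0.5 and 4, other filters, the replicate letter as a block, leaving out each sample and, chosen after seeing the data, a GC and length correction (loess span of 0.3). Only the main limma fit, and none of the alternatives, was tested on simulated reads. These were drawn with the same dispersion for every gene and without a library that stood apart as Caki2+Vector A did. Python 3.11.15 with scipy 1.17.1 was used for exact permutation tests, which were two-sided.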

Additional observations from a re-analysis of the deposited data

How the results depend on the processing

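PIK3R2 kept its direction and its call in every alternative run. The number of genes called was 3886, or 2553 in DESeq2, 4004 in edgeR and 2856 to 4170 with a sample left out. Of the 8 genes, 4 were called, and 1 to 5 with a sample left out: 1, PIK3R2, remained without Caki2+PBRM1 B. AKT1 kept its direction but lost its call in DESeq2 (0.13), without a filter (0.13), with quantile normalization (0.11) and with the GC and length correction (0.05), and ranged from 0.11 to 0.16 with a sample left out. Over the same fits PIK3CA ranged from -0.22 to -0.16, PIK3CB from -0.19 to -0.16, AKT2 from 0.03 to 0.16, PHLPP1 from 0.02 to 0.22 and PIK3R3 from -0.08 to 0.16. PIK3R3, which never passed, turned in sign or to 0.00 with the GC and length correction (0.00) and with quantile normalization (-0.03). The cause of these changes was not tested.

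The replicate letters did not pair the samples (correlations of same-lettered deviations from -0.0077 to 0.0138). With the letter as a replicate block, 4107 genes and 4 of the 8 were called. In edgeR on whole reads, 4 of the 8 passed. Depth limits PIK3R3 and PHLPP1, and genes under the filter on low values were tested only in the fit without a filter. There 1 gene of PDK1 and mTORC2 was called upregulated (0 with the filter) and 2 of class II and III PI3K (1 with the filter). The genes of these lists that only that fit tested were near 0 in every sample. PRR5L was at 4.3 normalized counts or less and PIK3C2G at 2.2 or less.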
